A study of Mus musculus with 76 samples.

Results

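The genes described here encode the ligands and receptors of the classical axon guidance families. They were chosen by name as the protein-coding genes of the netrins, Slits, semaphorins of classes 3 to 7, ephrins, Dcc, Unc5, Robo, neuropilin, plexin and Eph families. The rule found 69 genes (35 ligands and 34 receptors) among 21770 protein-coding genes of the annotation, and all 69 had a row in the count tables. The rule used no measured value, though it was chosen with earlier results of these data known.

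Growing axons read these proteins at their tips. Netrins act through Dcc and Unc5 receptors, with Dcc known for attraction and Unc5 for repulsion, and Slits repel axons through Robo receptors. Class 3 semaphorins are secreted and bind neuropilins that signal with plexins, whereas the membrane-bound classes bind plexins directly. Ephrins sit on the cell surface and bind Eph receptor tyrosine kinases, so that both partners must touch. In the diencephalon the same families guide thalamic axons towards the cortex, and several of them also act in blood vessels and in dividing progenitors.

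Diencephalon was taken from C57BL/6J mouse embryos at E11.5 and E17.5. Wild type embryos were compared with homozygous humanized embryos of a CRISPR-edited line, in which a human sequence named hs754 replaced its mouse counterpart on chromosome 13. RNA-seq was made from 4 replicates per genotype and stage. A replicate was a pool of littermates, 6 in number at the early and 3 at the late stage. Peak lists from wild type ChIP-seq were read for 3 histone marks, H3K4me3, H3K27ac and H3K27me3 (2 early and 3 late replicates), and for CTCF (3 late replicates). E11.5 and E17.5 samples differed in the number of embryos pooled, and the part of pooling cannot be told apart from that of stage. In bulk tissue, fewer cells of a type and less RNA per cell cannot be told apart either.

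The 16 RNA samples held between 16.4 and 24.3 M reads on genes. The diencephalon gene Tcf7l2 was high in every sample (166 to 329 FPKM), and the hindbrain genes Hoxa2 and Hoxb2 were near 0. Of 10 diencephalon markers, 1 rose and 4 fell between the stages in wild type. Of 3 telencephalon markers, 2 rose and 1 fell, with a median log2 fold change of 6.23 (5.97 in humanized embryos). The part of telencephalic tissue in the E17.5 samples was not tested. E17.5 wild type replicate 1 stood apart. Its lowest correlation with a replicate of its group was 0.938, against 0.981 or more within the other groups, and 31 of the 69 genes lay more than 2-fold from the mean of the other 3 replicates, against at most 2 in any other library. Its levels also moved with base composition, by 1.15 log2 units for each 10 points of transcript GC content, against -0.44 to 0.40 in the other 15 libraries, and the part of RNA quality or of dissection in this was not tested. It was kept, and results are also given without it.

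Between E11.5 and E17.5 most of these genes changed, and so did most of all genes tested. In wild type, 30 of the 67 genes tested rose and 18 fell (edgeR quasi-likelihood test, Benjamini-Hochberg adjusted p under 0.05), beside 29.0% of all genes tested that rose and 26.7% that fell. The share of guidance genes that fell was thus near that of all genes. The median log2 fold change of the guidance genes was 0.53. In humanized embryos, 33 rose and 24 fell, beside 38.2% and 39.5% of all genes, with a median of 0.30. Without E17.5 wild type replicate 1, the wild type counts were 32 and 24, and all 48 genes called with it remained called.

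Mostly the same genes were called in both genotypes, whose stage comparisons share no library. In all, 29 were called higher in both and 18 lower in both, and none was called in opposite directions. The log2 fold changes had the same sign in 60 of the 67 genes. They correlated across these genes (r = 0.965, a description, since genes are not independent replicates). The overlap of calls and the correlation over all genes were not computed. A further 10 were called in humanized embryos alone, 4 higher (Epha4, Epha7, Ephb1 and Robo1) and 6 lower (Plxnb2, Sema4c, Ntn3, Sema3f, Robo4 and Sema6c). Of these, 7 were also called in wild type once replicate 1 was left out, all but Ephb1, Robo1 and Robo4. Only Sema3b was called in wild type alone. Plxnb3 and Ntn5 did not pass the filter on low counts in either stage comparison.

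**Figure D1:**
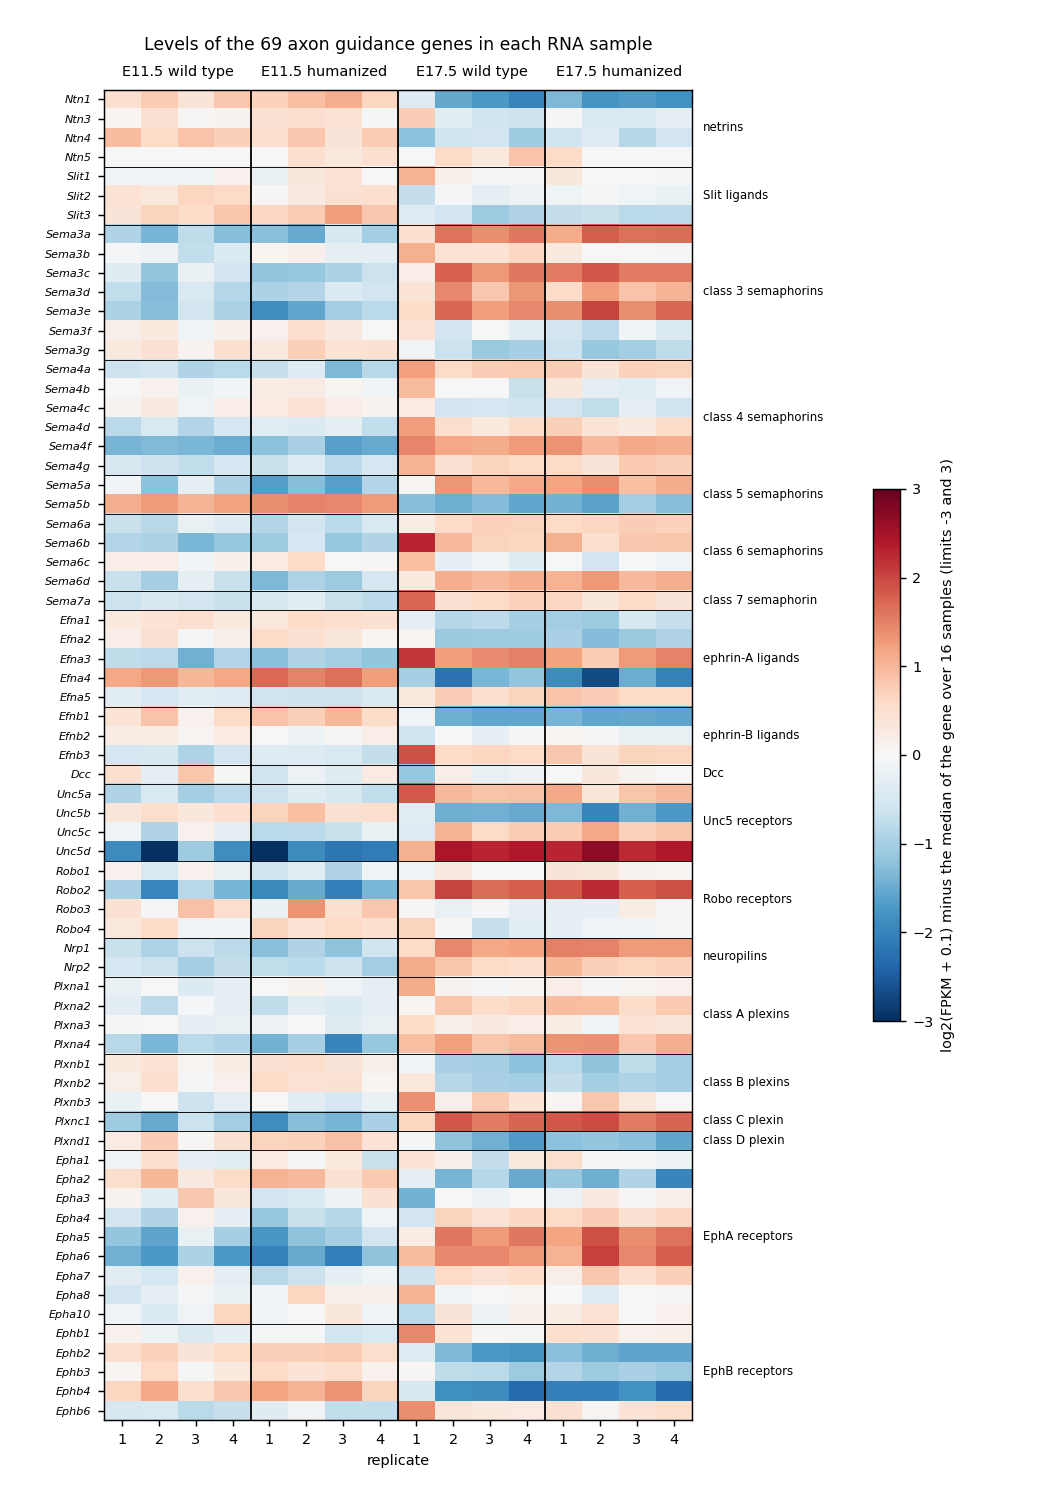
Levels of the 69 genes (rows, grouped by family) in the 16 RNA samples (columns), as log2(FPKM + 0.1) minus the median of each gene over the samples. Unc5d, Robo2, Epha6 and Plxnc1 are low in all 8 E11.5 samples and high at E17.5, Ephb4, Efna4 and Sema5b show the opposite, and E17.5 wild type replicate 1 differs in colour from the other 3 of its group in many rows.

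Levels are given below in FPKM, which here is the CPM (TMM-normalized over the 16 samples) per kilobase of the canonical transcript. At E11.5 the highest mean in wild type was that of Ephb2 (78.2 ± 7.04 FPKM, SD, n = 4), followed by Plxnb2 (46.7 ± 7.87), and 25 of the 69 genes exceeded 10 FPKM. At E17.5 the highest was Efnb3, and 33 genes exceeded 10 FPKM. In both stages of wild type the genes under 1 FPKM were few, 11 at E11.5 and 9 at E17.5.

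Among the netrins, secreted or anchored ligands, none rose. Ntn1, the founding long-range cue of the floor plate, measured 26.4, 32.4, 25.1 and 33.4 FPKM in the E11.5 wild type replicates and 14.5, 6.56, 5.67 and 4.69 at E17.5. The stages did not overlap, and replicate 1 was the highest at E17.5. The log2 fold change was -1.91 ± 0.34 (SE, adjusted p = 0.0007, edgeR) in wild type and -2.51 ± 0.14 in humanized embryos. Ntn4, also present in basement membranes, went from 8.46, 6.49, 8.11 and 7.26 to 1.83, 2.88, 2.92 and 2.07 FPKM (-1.66 ± 0.21, adjusted p = 7.8e-05). Ntn3 was low throughout, at 1.15 to 3.11 FPKM over the wild type samples. Ntn5 was all but absent, with 14 reads over the 16 samples.

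The netrin receptors split by member. Unc5d, a repulsive receptor known from migrating cortical neurons, showed the largest rise of all 69 genes. Its wild type levels were 0.414, 0.139, 0.817 and 0.434 FPKM in the early and 3.97, 10.4, 9.34 and 10.1 in the late samples, so that the lowest late sample was several times the highest early one. The log2 fold change was 4.21 ± 0.51 (adjusted p = 5.5e-05) in wild type. Humanized embryos gave 0.143, 0.421, 0.327 and 0.349 against 9.30, 12.3, 8.95 and 10.1 FPKM (5.01 ± 0.26, adjusted p = 8.9e-09). Unc5a rose from 1.32, 1.81, 1.22 and 1.43 to 9.28, 5.06, 4.66 and 4.73 FPKM (2.03 ± 0.27, adjusted p = 0.0001), where replicate 1 was again the highest. Unc5b, which is also an endothelial receptor, fell instead, from 8.94, 10.1, 8.86 and 9.85 to 5.42, 2.45, 2.47 and 2.35 FPKM (-1.58 ± 0.28, adjusted p = 0.00074). Unc5c rose by less (0.83 ± 0.32, adjusted p = 0.045). Dcc measured 24.1, 14.3, 30.5 and 17.6 FPKM in the early wild type samples and 7.73, 19.6, 14.8 and 15.3 in the late ones, ranges that overlap, and it was not called in either genotype (wild type adjusted p = 0.12).

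The promoter of Unc5d is shown because this gene rose most and lay among the promoters richest in CpG of the 69. It covers 250 bases before to 50 bases after the start of the canonical transcript (mm39, chr8:29709615-29709914, minus strand, printed 5′ to 3′ along the gene), and the 44 CpG dinucleotides are in capitals.
Unc5d: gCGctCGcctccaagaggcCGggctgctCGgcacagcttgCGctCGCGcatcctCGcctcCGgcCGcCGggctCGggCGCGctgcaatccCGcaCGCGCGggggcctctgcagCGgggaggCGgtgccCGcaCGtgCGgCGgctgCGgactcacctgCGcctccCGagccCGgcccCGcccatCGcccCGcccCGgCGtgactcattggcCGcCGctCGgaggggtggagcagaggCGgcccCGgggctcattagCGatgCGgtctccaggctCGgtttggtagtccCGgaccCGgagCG

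Of the Slit ligands, Slit2 and Slit3 fell, and their receptors diverged. Slit3 fell from 1.56, 1.92, 1.75 and 2.15 FPKM to 0.859, 0.754, 0.495 and 0.575 in wild type (-1.47 ± 0.22, adjusted p = 0.00027). Slit2 fell by 0.79 ± 0.19 on the log2 scale (adjusted p = 0.005), and Slit1 was not called (0.42 ± 0.26). Robo2, the Slit receptor with the largest rise, measured 4.85, 2.42, 5.40 and 3.63 FPKM in the early wild type samples and 17.2, 39.6, 31.1 and 34.3 in the late ones. Every late sample exceeded every early one, and the log2 fold change was 2.89 ± 0.33 (adjusted p = 3.4e-05). Humanized embryos went from 2.45, 3.30, 2.27 and 3.66 to 35.5, 46.0, 33.8 and 36.6 FPKM (3.69 ± 0.19, adjusted p = 7.8e-09). Robo1 was high at both stages (22.8 to 37.8 FPKM in wild type) and was not called there. Robo3, known for letting commissural axons reach the midline, fell by 0.66 ± 0.22 on the log2 scale (adjusted p = 0.027). Robo4, an endothelial receptor, was low in all wild type samples, at 0.807 to 2.24 FPKM, and was not called.

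The semaphorins made up much of the rise, with 14 of 20 called higher in wild type and 2 lower. Among the secreted class 3 members, Sema3a went from 0.557, 0.370, 0.624 and 0.408 FPKM to 1.63, 3.69, 3.11 and 3.602 (2.61 ± 0.30, adjusted p = 4.3e-05). Sema3e went from 0.514, 0.393, 0.706 and 0.513 to 1.66, 3.85, 2.73 and 3.12 (2.401 ± 0.30), and Sema3d from 0.204, 0.105, 0.270 and 0.180 to 0.575, 1.29, 0.798 and 1.18 (2.32 ± 0.36). In these 3 genes replicate 1 was the lowest of the late wild type samples, yet it stayed above all early ones. Sema3a and Sema3e are neighbours on chromosome 5, 626494 bp apart with a single protein-coding gene starting between them. Sema3c also rose (1.91 ± 0.35), Sema3g fell (-1.07 ± 0.26), and Sema3f was not called in wild type.

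Of the 13 semaphorins of classes 4 to 7, 9 rose in wild type, 1 fell (Sema5b) and 3 were not called (Sema4b, Sema4c and Sema6c). Sema4f showed little scatter, with 0.906, 0.967, 0.932 and 0.855 FPKM in the early wild type samples and 7.23, 5.87, 5.66 and 6.29 in the late ones (2.76 ± 0.18, adjusted p = 9e-07). Sema6b went from 2.73, 2.63, 1.93 and 2.28 to 25.3, 10.2, 8.20 and 8.07 FPKM. Its change leaned on replicate 1, at 2.43 ± 0.38 with it and 1.86 ± 0.16 without it. Sema7a, which is anchored by a lipid and acts through integrins and Plxnc1, went from 4.64, 5.18, 4.91 and 4.57 to 24.4, 10.1, 11.0 and 11.7 FPKM (1.56 ± 0.28 with replicate 1 and 1.16 ± 0.12 without). Sema5b had one of the largest falls, from 18.6, 20.8, 17.497 and 20.0 to 3.50, 3.08, 3.45 and 2.84 FPKM (-2.59 ± 0.16, adjusted p = 9e-07), with no overlap between stages. Its paralog Sema5a rose (1.53 ± 0.33, adjusted p = 0.0028).

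The semaphorin receptors rose or fell by class. Both neuropilins rose, with Nrp1, the co-receptor for Sema3a, going from 3.74, 3.08, 3.80 and 3.44 to 9.07, 16.4, 13.4 and 13.9 FPKM (1.90 ± 0.21, adjusted p = 3.1e-05). Of the class A plexins, which signal for neuropilins, Plxna4 rose from 3.77, 2.55, 3.82 and 3.50 to 12.8, 15.99, 12.1 and 13.2 (1.97 ± 0.20, adjusted p = 1.4e-05), Plxna2 and Plxna3 rose by less, and Plxna1 was not called. Plxnc1, the receptor of Sema7a, rose alongside its ligand, from 5.13, 3.76, 6.95 and 5.25 to 16.9, 39.5, 31.7 and 36.9 FPKM (2.55 ± 0.30, adjusted p = 4.4e-05). Plexins of classes B and D were the ones that fell. Plxnd1, a receptor for Sema3e that is also endothelial, fell from 9.31, 13.2, 8.10 and 10.9 to 7.63, 3.34, 2.81 and 2.36 FPKM (-1.37 ± 0.35, adjusted p = 0.0072). Plxnb1 fell from 27.4, 29.7, 23.6 and 26.1 to 20.8, 11.2, 11.0 and 9.37 (-1.03 ± 0.25, adjusted p = 0.005). Plxnb2 was not called with replicate 1 (-0.73 ± 0.30, adjusted p = 0.063) and was called without it (-1.18 ± 0.14).

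All 5 ephrin-A ligands changed in both genotypes, and 3 of them did so side by side on chromosome 3. Efna1, Efna3 and Efna4 follow each other on the minus strand, with starts 43318 bp apart (Efna1 to Efna3) and 15101 bp apart (Efna3 to Efna4) and no other protein-coding gene starting between them. The middle gene Efna3 rose, from 1.56, 1.55, 0.942 and 1.44 FPKM to 12.1, 6.60, 7.45 and 7.99 (2.63 ± 0.26, adjusted p = 1.4e-05). Its neighbour Efna4 had the largest fall of the 69 genes, from 6.10, 6.83, 5.43 and 6.19 to 1.31, 0.498, 0.971 and 1.13 (-2.65 ± 0.28, adjusted p = 2.1e-05). Efna1 on the other side, an ephrin also known from blood vessels, fell from 4.19, 4.55, 4.88 and 4.19 to 2.79, 1.83, 1.95 and 1.65 (-1.13 ± 0.22, adjusted p = 0.0015). In none of the 3 genes did the stages overlap, and humanized embryos gave 2.36 ± 0.18, -3.69 ± 0.23 and -1.31 ± 0.18 for Efna3, Efna4 and Efna1. Among the other ephrin-A genes, Efna5 rose (0.95 ± 0.17) and Efna2 fell (-0.92 ± 0.28).

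The 3 promoters are shown because neighbouring genes of one family differed there in direction, in CpG content and in marks. The windows are as above (mm39, minus strand), at chr3:89245324-89245623 for Efna4 with 10 CpGs, chr3:89230223-89230522 for Efna3 with 20 and chr3:89186905-89187204 for Efna1 with 20, with CpGs in capitals.
Efna4: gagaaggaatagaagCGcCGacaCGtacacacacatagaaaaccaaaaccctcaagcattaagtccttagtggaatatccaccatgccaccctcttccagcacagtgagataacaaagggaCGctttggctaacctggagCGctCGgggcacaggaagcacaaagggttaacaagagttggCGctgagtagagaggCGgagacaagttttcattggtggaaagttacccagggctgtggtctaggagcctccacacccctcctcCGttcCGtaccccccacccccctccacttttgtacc
Efna3: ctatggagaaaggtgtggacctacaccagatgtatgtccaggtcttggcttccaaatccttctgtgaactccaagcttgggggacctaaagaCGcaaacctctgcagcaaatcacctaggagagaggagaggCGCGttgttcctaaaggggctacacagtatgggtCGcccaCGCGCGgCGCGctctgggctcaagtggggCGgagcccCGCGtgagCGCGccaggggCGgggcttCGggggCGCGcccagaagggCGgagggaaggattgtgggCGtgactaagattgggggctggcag
Efna1: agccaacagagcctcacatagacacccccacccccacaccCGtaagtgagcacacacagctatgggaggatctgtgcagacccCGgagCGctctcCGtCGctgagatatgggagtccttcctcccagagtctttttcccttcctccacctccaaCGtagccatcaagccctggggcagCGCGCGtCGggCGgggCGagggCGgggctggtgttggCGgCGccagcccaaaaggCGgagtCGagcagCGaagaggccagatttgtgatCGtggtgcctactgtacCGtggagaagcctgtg

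**Figure D2:**
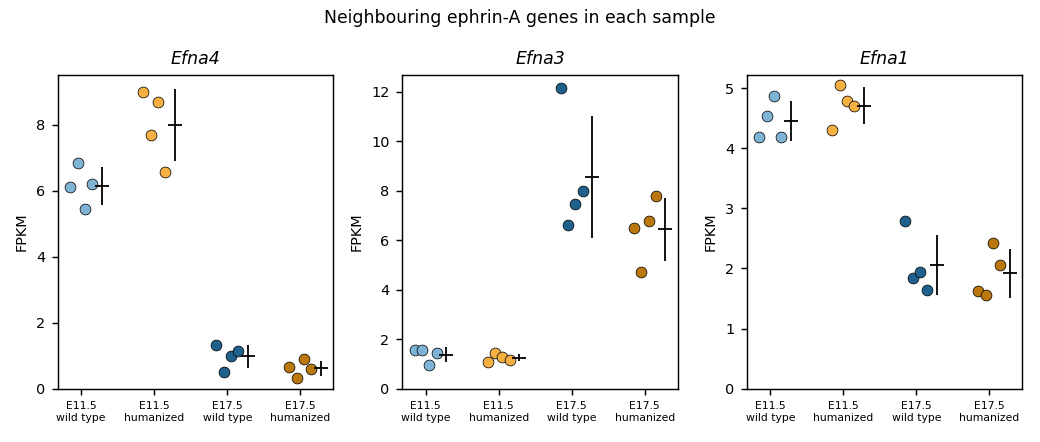
FPKM of Efna4, Efna3 and Efna1, in their order on chromosome 3, in each of the 16 RNA samples (points), with the mean and SD of each group of 4 beside them (bar). Efna3 is higher and Efna4 and Efna1 are lower in all 8 E17.5 samples than in all 8 E11.5 samples.

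Efna4 also differed from Efna3 and Efna1 in marks, whereas Efna3 and Efna1 shared their H3K27ac and H3K27me3 states. Efna4 carried H3K4me3 and H3K27ac but no H3K27me3 in every wild type list of both stages, and its H3K27ac fold enrichment went from 16.9 and 10.9 in the early lists to 9.19, 2.45 and 8.64 in the late ones. At Efna3, no H3K27ac peak was called at E11.5, and at E17.5 its fold enrichment was 21.2, 29.2 and 33.9. H3K27me3 at Efna3 went from 17.1 and 15.1 at E11.5 to 6.21, 4.76 and 4.69. Efna1, which fell, likewise had H3K27ac in no E11.5 list and in every E17.5 list. Its H3K27me3, also in every list, went from 9.36 and 7.18 to 5.88, 4.46 and 4.31. Fold enrichments of different libraries depend on their depth and background, which peak lists do not give.

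Ephrin-B ligands and the Eph receptors also split. Efnb1 fell from 28.8, 38.7, 23.7 and 32.4 to 19.6, 7.69, 7.28 and 7.29 FPKM (-1.57 ± 0.34, adjusted p = 0.0027), whereas Efnb3, abundant in neurons, reached 155 in replicate 1 and 61.1 to 64.5 in the other late wild type samples, from 21.6 to 29.6 at E11.5 (1.66 ± 0.31 with replicate 1 and 1.19 ± 0.13 without). Efnb2 was not called. Among EphA receptors, Epha6 rose from 0.235, 0.175, 0.373 and 0.175 to 1.64, 2.37, 2.37 and 2.15 (3.13 ± 0.30, adjusted p = 1e-05), and Epha5 from 3.39, 2.50, 6.60 and 3.78 to 8.88, 23.0, 18.8 and 23.3 (2.17 ± 0.37, adjusted p = 0.00063). Epha2 was the EphA receptor that fell, from 1.96, 2.73, 1.62 and 1.99 to 1.08, 0.443, 0.685 and 0.397 (-1.68 ± 0.33, adjusted p = 0.0013). The remaining 6 EphA receptors were not called in wild type.

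EphB receptors mostly fell. Ephb4, the receptor of Efnb2 that marks veins, went from 15.7, 22.4, 14.0 and 17.6 to 7.05, 2.72, 2.63 and 1.90 FPKM (-2.30 ± 0.38, adjusted p = 0.00051). Ephb2, the most abundant of the 69 genes at E11.5, went from 76.0, 86.0, 69.6 and 81.1 to 40.95, 20.9, 16.03 and 15.5 (-1.75 ± 0.30, adjusted p = 0.00064). In both, the late replicate 1 was the highest of its group, and leaving it out gave -2.88 ± 0.20 for Ephb4 and -2.18 ± 0.14 for Ephb2. Ephb3 fell (-0.85 ± 0.27) and Ephb6, which lacks kinase activity, rose (1.28 ± 0.27).

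**Figure D3:**
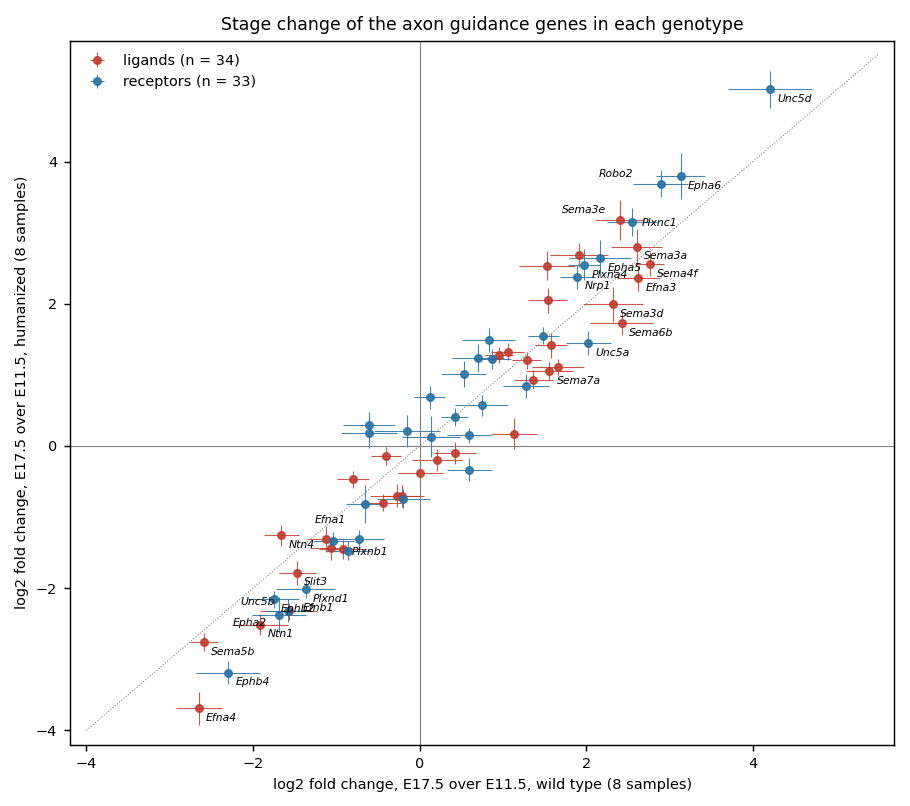
Log2 fold change of E17.5 over E11.5 (± SE) in wild type (x axis) and humanized embryos (y axis) for the 34 ligands and 33 receptors tested, with the genes of largest wild type change labelled. The points lie along the diagonal from Efna4 (-2.65 and -3.69) to Unc5d (4.21 and 5.01).

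Cell type markers moved between the stages together with these genes. All 4 progenitor markers (Sox2, Nes, Mki67 and Hes5) fell in both genotypes, with a median log2 fold change of -2.74 in wild type, and 3 of 4 neuron markers rose (Stmn2, Dcx and Snap25). Of 5 endothelial markers, 1 rose and 0 fell in wild type, and 1 rose and 3 fell in humanized embryos. In E17.5 wild type replicate 1 all 5 endothelial markers were above the other 3 replicates of that group (Pecam1 at 17.47 FPKM against 8.54 to 9.28). So were Ephb4, Plxnd1, Unc5b, Efna1 and Robo4, but also Sema6b, Efnb3, Unc5a and Sema7a, whereas Nrp1 was the lowest there. The part of cell type proportions in the levels of the guidance genes was not tested.

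Other genes of the pathway were counted in the same way. Of 16 related ligands, receptors and adhesion molecules, 9 rose and 2 fell in wild type, and 9 rose and 4 fell in humanized embryos. The adhesion molecules Chl1 (5.19) and L1cam (2.68) and the netrin-like Ntng1 (4.48) rose on the log2 scale in wild type, whereas Cntn2 (-1.74) and Flrt3 (-0.82) fell. Of 29 genes acting downstream of the receptors, 17 rose and 3 fell in wild type, and 21 rose and 5 fell in humanized embryos. Over all genes tested, 29.0% rose and 26.7% fell in wild type, and 38.2% and 39.5% in humanized embryos. These included the growth cone protein Gap43 (2.68) and the kinase Pak3 (3.10), which rose, and Mical1 (-1.46), Vav2 (-0.97) and Dock1 (-1.13), which fell.

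The paper used the humanized line to ask how a human CpG island, a stretch rich in CpG, affects enhancer activity at hs754. It reported higher H3K4me3 there at both stages, and higher H3K27ac that did not pass genome-wide correction. RNA-seq served to look for effects on gene expression. None of the 69 genes was called between the genotypes here. The paper, with DESeq2, reported Ppp3cc and Serinc5 as differing at E11.5, neither of them a guidance gene. With edgeR at E11.5, 0 of 67 tested were called, as were 0 of all genes (0%). Of the guidance genes, 5 had an unadjusted p under 0.05, beside 5.94% of all genes tested. These 5 were Sema5a, Epha8, Efna4, Sema5b and Dcc, each with an adjusted p of 0.58. Sema5a measured 3.64, 1.58, 3.13 and 1.95 FPKM in wild type and 1.15, 1.53, 1.17 and 2.04 in humanized embryos (-0.83 ± 0.28 on the log2 scale). Dcc measured 24.1, 14.3, 30.5 and 17.6 against 11.3, 15.1, 13.2 and 20.4 (-0.55 ± 0.25). The genotypes overlapped in both. Efna4 measured 6.10, 6.83, 5.43 and 6.19 against 8.998, 7.69, 8.68 and 6.58 (0.35 ± 0.13), with 1 humanized sample inside the wild type range. Epha8 measured 3.68, 4.39, 5.18 and 4.68 against 5.16, 8.62, 6.04 and 6.01 (0.50 ± 0.17). Sema5b measured 18.6, 20.8, 17.497 and 20.0 against 22.9, 24.3, 23.5 and 20.9 (0.23 ± 0.09), the only gene of the 5 whose genotypes did not overlap.

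At E17.5, 0 of 68 were called with edgeR, as were 0 of all genes (0%). Only Sema3b had an unadjusted p under 0.05, beside 1.10% of all genes tested (207 of 18763). This fit did not pair same-numbered samples. With the replicate number as a block, 0 guidance genes were called, Sema3b was again the only one with an unadjusted p under 0.05, and 765 of 20164 genes tested had one. The levels of Sema3b were 1.30, 0.807, 0.793 and 0.922 FPKM in wild type and 0.720, 0.573, 0.562 and 0.550 in humanized embryos, without overlap (-0.67 ± 0.26, adjusted p = 0.81). Unc5b (-0.53 ± 0.30), Sema7a (-0.49 ± 0.28), Ephb3 (-0.44 ± 0.25) and Efna3 (-0.42 ± 0.24) followed. Humanized E17.5 levels were 2.66, 1.67, 2.48 and 2.03 FPKM for Unc5b and 11.3, 9.29, 10.8 and 9.56 for Sema7a. They were 3.02, 2.58, 2.83 and 2.57 for Ephb3, whose wild type samples held 5.80, 3.29, 3.17 and 2.58, and 6.48, 4.72, 6.78 and 7.79 for Efna3. In these 4 genes wild type replicate 1 was the highest of the 8 samples, and their values moved to -0.14, -0.10, -0.14 and -0.20 without it. The median over the 68 genes moved from -0.13 to 0.04.

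A difference in stage change between the genotypes was called for no gene (interaction of genotype and stage, 0 of 68 guidance genes and 0% of all genes). An unadjusted p under 0.05 was found for 8, beside 7.96% of all genes tested. The 5 lowest were those of Epha8 (-0.93 ± 0.33), Efna4 (-1.04 ± 0.37), Sema3b (-0.96 ± 0.34), Sema5a (1.01 ± 0.40) and Dcc (0.91 ± 0.37), given as the humanized minus the wild type log2 stage change, each with an adjusted p of 0.46. DESeq2 likewise called none of the guidance genes in these 3 comparisons. Over all genes, DESeq2 called 1 higher and 1 lower in humanized embryos at E11.5, 1 higher at E17.5 and 0 for the interaction.

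The wild type peak lists showed these promoters to be marked more often than those of other genes. H3K4me3, found at active and poised starts, was present within 1 kb of the start in every list for 65 of 69 genes at E11.5 (94.2%, against 63.5% of 21770 protein-coding genes) and for 64 at E17.5 (92.8%, against 63.6%). H3K27me3, the mark of Polycomb repression, was present for 45 genes at E11.5 (65.2%, against 19.4%) and 32 at E17.5 (46.4%, against 19.1%). Within 250 bp of the start it was present for 28 genes at the early and 23 at the late stage, and for 9 rather than 17 genes at the early stage alone. Every gene with H3K27me3 in all lists of a stage also had H3K4me3 in all of them. Whether both marks lay on the same allele or in different cells of the tissue cannot be told apart from these lists. CTCF, a boundary protein, was present at 45 starts at E17.5 (65.2%, against 33.6%).

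**Figure D4:**
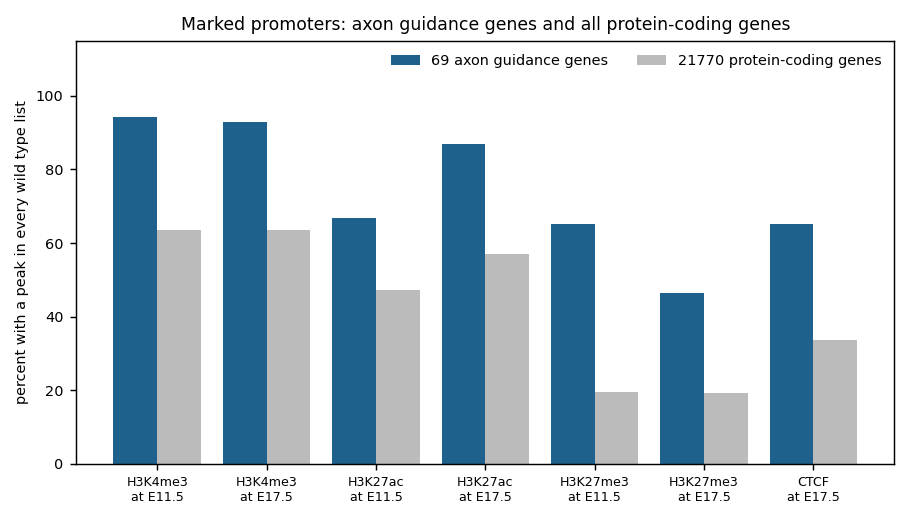
Percent of the 69 guidance genes (blue) and of the 21770 protein-coding genes (grey) with a peak within 1 kb of the canonical start in every wild type list of a mark and stage. For H3K27me3 at E11.5 the bars stand at 65.2 and 19.4, the widest ratio of the 7 pairs.

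The share with H3K27me3 was also above that of genes with like starts. Among genes with H3K4me3 in every E11.5 list, 69.2% of the guidance genes (45 of 65) and 27.8% of all protein-coding genes carried H3K27me3. Among promoters with at least 10 CpGs, the shares were 69.8% (37 of 53) and 26.0%. The guidance promoters held a median of 17 CpGs in 300 bases, against 11 over all protein-coding genes, and 46 of 69 (66.7%, against 42.5%) held the GC box GGGCGG on either strand. The TATA box TATAAA was found on either strand in 3 (Slit2, Sema3a and Efnb2, 4.35%, against 13.2% of all promoters). These shares are descriptions, and no test was made of them.

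H3K27me3 was kept at 28 starts in both stages, was found in every E11.5 list but not in every E17.5 list at 17, and was found in every E17.5 list but not in every E11.5 list at 4 (Epha1, Epha3, Epha4 and Sema5a). These were 40.6%, 24.6% and 5.8% of the 69 genes, against 15.3%, 4.03% and 3.77% of all protein-coding genes. Among the last 4, Epha1 and Epha3 had a peak in 1 of the 2 E11.5 lists. In humanized lists, with chromosome 13 left out, the count of such starts was 0. Of the 17, 6 had no H3K27me3 peak in any E17.5 list, namely Efna2, Efna5, Efnb2, Plxnb1, Sema4g and Sema6c. At Efnb2, a ligand that marks arteries, the fold enrichment was 6.52 and 5.80 at E11.5. At Efna5 it was 5.29 and 4.68. The E17.5 lists held more H3K27me3 peaks than the E11.5 lists (27452 to 43700 against 13850 and 19166), but a start had to be marked in 3 lists at the late and in 2 at the early stage. With 1 late list left out, 32 to 36 starts were marked late and 13 to 17 were marked early alone (36 and 13 without late replicate 3). The highest fold enrichments at E11.5 were those of Plxnd1 (17.6 and 14.1), Efna3 and Robo3 (13.5 and 14.5). At Ephb4, which fell, H3K27me3 went from 2.78 and 2.63 to 12.2, 9.06 and 10.3, which by its mean was second among the 69 genes at the late stage to Robo3 (12.9, 11.0 and 10.4). Epha2, which also fell, changed little, from 8.50 and 9.14 to 10.4, 8.74 and 7.65 (means of 8.82 and 8.92). Slit3 and Unc5b fell too, and their mean enrichment went down (8.63 to 6.74 and 8.15 to 6.04). The direction over all genes that fell was not counted. Depth and background of the libraries, which also enter fold enrichments, are not given by peak lists.

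The promoter of Efnb2 is shown as one that carried H3K27me3 in both E11.5 lists and in none at E17.5 (mm39, chr8:8711200-8711499, minus strand, 37 CpGs in capitals).
Efnb2: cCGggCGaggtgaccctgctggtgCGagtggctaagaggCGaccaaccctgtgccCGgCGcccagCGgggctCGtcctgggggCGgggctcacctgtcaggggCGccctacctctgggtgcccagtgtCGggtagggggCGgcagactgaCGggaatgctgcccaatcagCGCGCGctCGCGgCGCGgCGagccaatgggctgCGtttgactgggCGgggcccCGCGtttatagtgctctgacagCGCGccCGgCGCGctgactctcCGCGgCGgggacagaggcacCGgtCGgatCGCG

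The mark and the level of RNA went together only in part. Genes with H3K27me3 in every E17.5 list had a median of 4.89 FPKM at E17.5 in wild type, and the others 13.5. At E11.5 the medians were 4.94 for the 45 marked genes and 7.59 for the others. Highly expressed genes were among the marked ones, such as Ephb2 at E11.5 and Nrp2 at both stages (31.4 to 47.3 FPKM in the E17.5 wild type samples). Of the 28 genes marked at both stages, 12 rose, 11 fell and 5 were not called. Of the 17 without it in every E17.5 list, 9 rose and 4 fell. Over all genes tested, 29.0% rose and 26.7% fell in wild type, and the calls of all genes by H3K27me3 state were not counted.

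H3K27ac, the mark of active promoters and enhancers, was present at 46 starts at E11.5 (66.7%, against 47.3%) and 60 at E17.5 (87.0%, against 57.0%). At 12 starts it was found in no E11.5 list and in every E17.5 list, and of these genes 8 rose (Efna3, Epha6, Sema3a, Sema3e, Sema4d, Sema4f, Sema5a and Unc5d) and 3 fell (Efna1, Epha2 and Plxnd1). At Unc5d its fold enrichment at E17.5 was 10.1, 11.0 and 7.77, beside H3K27me3 in all 5 lists (6.39 and 6.09 early, 4.98, 4.10 and 4.63 late). Of the 46 genes with H3K27ac in every list of both stages, 18 rose and 12 fell. Over all genes tested, 29.0% rose and 26.7% fell in wild type. How many of all protein-coding genes had each of these H3K27ac states was not counted. E17.5 lists held 62720 to 77419 H3K27ac peaks, against 32418 and 36150 at E11.5. When all H3K27ac lists were shortened to one length, 46 starts were marked at the early and 53 at the late stage, a choice made after seeing the data.

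**Figure D5:**
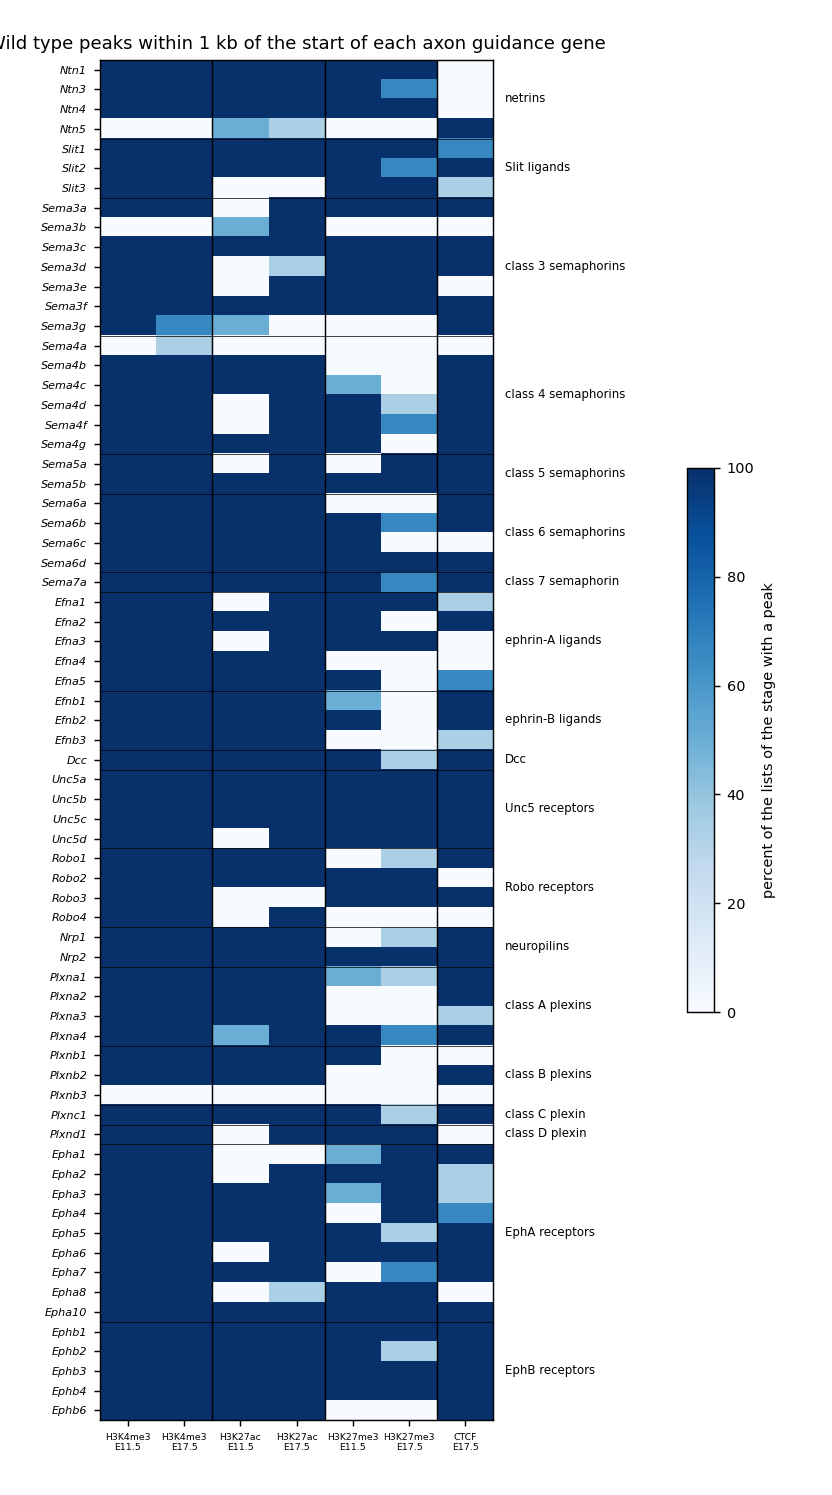
Percent of the wild type lists of each stage (2 at E11.5, 3 at E17.5) with a peak within 1 kb of the canonical start of each of the 69 genes (rows, grouped by family), for 4 marks by stage (7 columns). H3K4me3 fills nearly all rows, H3K27me3 is lighter in the E17.5 than in the E11.5 column, and Plxnb3 has no peak in any column.

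No H3K4me3 peak was found within 1 kb of the canonical starts of Sema3b, Plxnb3 and Ntn5 in any wild type list. Sema3b was nonetheless transcribed at 0.300 to 1.30 FPKM in the wild type samples and had H3K27ac in every E17.5 list. Plxnb3 held at most 0.299 FPKM in any wild type sample and had no mark at all. Ntn5 had a CTCF peak in each of the 3 lists (fold enrichment 36.1, 23.3 and 36.8). Sema4a, at 9.61 to 15.1 FPKM in the E17.5 wild type samples, had H3K4me3 in 1 of 5 lists at its canonical start. When any annotated start was allowed, 66 and 65 genes were marked at E11.5 and E17.5.

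The promoters of Plxnb3 (chrX:72800370-72800669, 1 CpG) and Ntn5 (chr7:45333196-45333495, 3 CpGs), both on the plus strand of mm39, are shown as those of the pair of genes that failed the filter on counts in the stage comparisons and had no H3K4me3, with CpGs in capitals.
Plxnb3: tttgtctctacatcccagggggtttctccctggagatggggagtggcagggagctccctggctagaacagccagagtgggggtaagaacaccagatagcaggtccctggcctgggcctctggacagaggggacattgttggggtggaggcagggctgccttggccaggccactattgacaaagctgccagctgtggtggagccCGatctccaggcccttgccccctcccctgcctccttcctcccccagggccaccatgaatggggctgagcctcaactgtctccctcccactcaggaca
Ntn5: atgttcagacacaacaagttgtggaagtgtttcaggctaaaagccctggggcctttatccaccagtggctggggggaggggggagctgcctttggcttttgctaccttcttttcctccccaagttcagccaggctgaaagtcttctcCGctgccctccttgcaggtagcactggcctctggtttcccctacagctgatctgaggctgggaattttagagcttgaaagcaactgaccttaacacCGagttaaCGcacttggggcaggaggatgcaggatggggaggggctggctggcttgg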

How the data were processed

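RNA was counted in 16 samples and ChIP-seq peaks were read from 36 lists. Per the labels and methods, the authors aligned RNA-seq reads to mm39 with STAR 2.7.9a and deposited raw counts of reads per gene (GENCODE release 31). Release 39 gave names and starts. ChIP-seq reads were aligned with Bowtie2 2.4.2 and peaks called per replicate with MACS2 2.2.7.1. The authors' lists give a fold enrichment ratio, the -log10 of the p-value and q-value, and a score. The authors' H3K27ac antibody also binds H2BK5ac. H3K27me3 lists have broad-peak form, and their settings are not given in the sources used here. The 24 inputs were not analysed here.

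The unstranded counts were filtered (filterByExpr), TMM-normalized and tested with edgeR 4.0.16 (R 4.3.3), and levels rest on them too. The column of 1 strand held 96.2% of the stranded counts. For Efna3, Plxna1 and Efna4 that column held 146.2%, 132.5% and 111.0% of the unstranded count, so the levels printed for them are low by that measure. The median over the guidance genes was 99.6%. Alternatives were DESeq2 1.42.0, its size factors, no filter, the strand column, 1 fit of 16 samples, a replicate block and leaving out each replicate. Tests were checked on simulated data. Same-numbered E17.5 samples of the genotypes deviated together in part (r of 0.57, 0.64, 0.11 and 0.27), so the fit with the replicate block is also given there. Wild type replicates 3 and 4 deviated most like humanized replicates 4 and 2. The main fit used no block, and no label states a pairing. A start was marked where a peak had at least 1 bp within 1000 bp of it in every list of the stage. Lines naming no gene held 48.1% to 58.4% of reads.

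The genes, lists and tests were chosen with earlier results of these data known. Values by sample are given for called genes with the largest wild type stage change (12 in each direction and 1 of each family) and the 5 lowest p-values of each genotype comparison. Genes with H3K27me3 in every list of a stage were counted, with examples, and those with no H3K4me3 or failing the filter were named. Other genes named were chosen after their values were seen. Each replicate pooled embryos of one litter, and nothing states that replicates were separate litters, so p-values measure the spread between these samples. Sequences are from GRCm39.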

Additional observations from a re-analysis of the deposited data

Results flagged for a closer look

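Over 132 groups of 4 libraries (the 33 genes named for their stage or genotype values, in 4 groups), 10 held a library whose distance to its nearest neighbour took up an unusually large part of the range of the group, where chance would give about 1 in 20 groups. E17.5 wild type replicate 1 was the library in 8 of the 10. It was the highest of its group for Sema6b (25.32 FPKM), Unc5a (9.275), Ephb4 (7.054), Unc5b (5.417), Efnb1 (19.57), Sema7a (24.4), Plxnb1 (20.85) and Epha8 (11.1). The others were humanized E17.5 libraries, with replicate 2 lowest for Epha8 (4.106 FPKM) and replicate 1 highest for Sema3b (0.7201 FPKM). What sets replicate 1 apart was not tested.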

How the results depend on the processing

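The number of guidance genes called by stage stayed within 1.5 times under every alternative run (48 in wild type, 47 to 56 under other settings and 44 to 56 with 1 library left out, and 57 in humanized embryos, 56 to 59 under both). No guidance gene was called between genotypes or for the interaction under any of them. Unadjusted p-values (edgeR) of the genotypes at E11.5 depended on single libraries, however. Of 67 guidance genes, 5 were under 0.05 in the main fit, 20 without wild type replicate 2 and 18 without humanized replicate 4. Over all genes these were 1058 of 17816, 3937 of 18268 and 3963 of 18086. For the 33 genes named by size of stage change or by genotype p-value, the 1029 values under alternatives kept their direction and call. Among other genes, 8 gained a wild type stage call without E17.5 wild type replicate 1 (Epha4, Epha7, Plxnb2, Sema4c, Efnb2, Ntn3, Sema3f and Sema6c). The numbers of replicates were shared across stages only as numbers, since same-numbered deviations correlated between -0.60 and 0.45, and those of the genotypes at E11.5 between 0.03 and 0.21. With the replicate block 47 genes were called by stage in wild type (29 higher and 18 lower) and 57 in humanized embryos. It called 0 in the other comparisons, that of the genotypes at E17.5 included. Within 250 bp of the start, H3K27me3 was found at 28 starts at E11.5, all 28 with H3K4me3, and at E11.5 alone at 9. With at least 500 bp covered, CTCF was found at 22, where the median CTCF peak in the wild type lists was only 388 to 404 bp wide. H3K27me3 at E17.5 alone, 4 in the wild type lists, was 0 in humanized lists (chromosome 13 left out), 1 with the same number of peaks per list, a choice made after seeing the data, and 2 to 5 with a list left out (2 without E11.5 replicate 2). Why these counts moved was not tested. Plxnb3 and Ntn5 failed the filter on low counts. Without the filter Plxnb3 was called higher at E17.5 in wild type (2.45 ± 0.65, adjusted p = 0.0046, edgeR) and in humanized embryos (1.52 ± 0.61, adjusted p = 0.033), and Ntn5, with 14 reads, was called in neither. Peak lists give no depth.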

Other observations

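Promoter marks of the 67 guidance genes outside chromosome 13 were mostly the same in humanized lists. The state at the start (a peak in every list or not) was the same for 67 genes for H3K4me3 at each stage. It was the same for 65 and 63 genes for H3K27ac at E11.5 and E17.5, for 59 and 62 for H3K27me3, and for 62 for CTCF. Genes that differed for H3K27me3 at E11.5 were Epha1, Epha3, Nrp1, Plxna1, Plxnb1, Sema4c, Sema4g and Sema5a. These differences were not tested.

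Markers of the other cell types changed between the stages in wild type. All 3 astrocyte markers rose (median log2 fold change 6.17), and 2 of 3 oligodendrocyte lineage, 1 of 2 mural cell, 2 of 3 choroid plexus and 1 of 3 microglia markers rose with none lower. Meningeal and fibroblast markers fell in 3 of 4 cases and rose in 1, and erythroid markers fell in 1 of 3. Diencephalon markers rose in 1 and fell in 4 of 10, telencephalon markers rose in 2 and fell in 1 of 3, and 0 of the 2 midbrain and hindbrain markers tested was called. None of these lists held a gene called between the genotypes.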
